A study of Mus musculus with 39 samples.

Results

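The genes described here are 9 acyl-CoA thioesterases of mouse liver, Acot1, Acot2, Acot3, Acot4, Acot7, Acot8, Acot9, Acot12 and Acot13, out of 13230 genes with RNA values in both gradients of the series. They were taken by name from the Acot genes, to compare members whose proteins are assigned to the cytosol, the mitochondria or the peroxisomes, and the family was chosen by the TPM of Acot3, which rises strongly from the light to the dense fractions. That rise is therefore given below as a description, without a test. RNA was sequenced from fractions of 10–50% sucrose gradients (ATLAS-Seq, in which a tissue homogenate made without detergent and cleared of nuclei is separated by centrifugation and each fraction is sequenced). Gradient 1 and gradient 2 each came from the liver of 1 wild-type FVB female mouse, with no treatment and with no age given in the sources used here. The 17 libraries of gradient 1 hold fractions 4 to 19 and 21 and the 22 libraries of gradient 2 fractions 3 to 24, where a higher number is a denser fraction. Each fraction has 1 library per gradient, so the replicates are the 2 gradients (n = 2), and the fractions within a gradient do not replicate each other.

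Acyl-CoA thioesterases hydrolyze acyl-CoA esters to the free acid and coenzyme A, and so oppose the acyl-CoA synthetases that activate fatty acids for oxidation or for lipid synthesis. Different members act in different compartments. Acot1, Acot7 and Acot12 encode cytosolic enzymes, Acot2, Acot9 and Acot13 encode enzymes in or at mitochondria, and Acot3, Acot4 and Acot8 encode peroxisomal enzymes, which release shortened acids and other acyl groups made by peroxisomal oxidation. In liver, several members are known as targets of the nuclear receptor PPAR alpha, which drives fatty acid oxidation in the fasted state.

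Values are TPM, a transcript abundance corrected for transcript length and scaled to the same total in every library, so a value states how large a part of a fraction's RNA a gene takes. TPM totals ran from 998099 to 999202 over the 39 libraries, so they carry no record of sequencing depth, and the counting error behind each value is unknown. The 50 most abundant genes took from 27.1% to 52.4% of a library's TPM. The 5 hepatocyte markers (Alb, Apoa1, Ttr, Cps1 and Cyp2e1) summed to between 6839 and 49731 TPM over the 17 fractions shared by the gradients, while 5 Kupffer cell, 5 sinusoidal endothelial and 5 stellate cell markers reached at most 163, 75.3 and 139 TPM and the 4 cholangiocyte markers other than Epcam, which was not analysed here, at most 9.43 TPM. The 3 erythroid markers analysed reached 520 TPM. The hepatocyte markers thus led in each of these fractions, as the label liver gives.

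Acot1, Acot2, Acot3 and Acot4 are tandem paralogs on the forward strand of chromosome 12 within 72.5 kb of the GRCm38 assembly, chr12:83987861-84060402, in the order Acot2 (from 83987861), Acot1 (from 84009490), Acot4 (from 84038379) and Acot3 (from 84052144), and their sequences decide how well short reads can tell them apart. Over aligned coding bases, Acot1 was 95.6% identical to Acot2, with a longest identical run of 273 bases, 84.0% identical to Acot3 and 73.5% identical to Acot4. The most alike window of 30 coding bases of the 4 genes, shown because its bases do not separate the genes, is the same in all of them. It lies in exon 1 of Acot1 (chr12:84009622-84009651), Acot2 (chr12:83988137-83988166) and Acot4 (chr12:84038623-84038652) and in exon 2 of Acot3 (chr12:84053597-84053626).
Acot1, Acot2, Acot3 and Acot4: tgcgcgacgagaagggcgcgctcttccgag
The window with the most differences from Acot1 is shown because it separates Acot3 and Acot4 from the others and still leaves Acot1 and Acot2 the same. Capitals mark bases that differ from Acot1, of which Acot3 has 20 and Acot4 has 21. It lies in exon 3 of Acot1 (chr12:84016888-84016917), Acot2 (chr12:83992610-83992639) and Acot4 (chr12:84043299-84043328) and in exon 4 of Acot3 (chr12:84058529-84058558), all on the forward strand and read 5′ to 3′.
Acot1: tccgtggctgctgttgggaacaccatctcc
Acot2: tccgtggctgctgttgggaacaccatctcc
Acot3: tcTAtATcCAACAtCggCGGAaAcTtACAG
Acot4: tcTgCATTCAGtgGAAACaGACATatcAAG

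Of all 31-base words in the coding transcripts of Acot1, with both strands read as 1 word, 36.6% also occurred in Acot2, Acot3, Acot4 or Acot6, a further paralog of the same chromosome. That share was 34.6% for Acot2, 9.45% for Acot3 and 5.93% for Acot4. Acot3 shared 24.3% and Acot4 16.4% of their words with other gene models, which include Acot5, the same-strand model Gm49366 that overlaps both and the antisense gene 4732463B04Rik, none of which was analysed here. Acot7 (chromosome 4, 152178134 to 152271855, forward strand) and Acot13 shared no 31-base word with another gene. Acot9 (X chromosome, 155262443 to 155297654) shared 36.9%, mostly with Acot10, a gene not analysed here. Acot8 (chromosome 2, 164792765 to 164804882, reverse strand) shared 18.7% with Snx21, which lies opposite it, and Acot12 (chromosome 13, 91741512 to 91786148) shared 3.93% with the antisense gene 4833422C13Rik. The levels of Acot1, Acot2, Acot3, Acot4, Acot8, Acot9 and, to a smaller degree, Acot12 are therefore uncertain to the extent that the authors' quantification had to divide such reads among genes, and how it divided them was not tested.

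The thioesterases differed widely in level. Over the 17 fractions shared by the gradients, Acot13 had the highest mean, 290 TPM in gradient 1 and 289 TPM in gradient 2, and Acot9 the lowest, 5.63 and 4.03 TPM. In gradient 1 the order below Acot13 was Acot1 (224 TPM), Acot12 (184), Acot4 (130), Acot3 (118), Acot8 (74.1), Acot7 (46.1) and Acot2 (25.9). In gradient 2 the order was Acot12 (163 TPM), Acot4 (73.7), Acot3 (55.3), Acot7 (45.1), Acot8 (43.5), Acot1 (40.6) and Acot2 (14.5). Acot1 moved from rank 2 to rank 7, Acot7 from rank 7 to rank 5 and the others by at most 1 place. Acot7, Acot8 and Acot1 were close neighbors in gradient 2, at 45.1, 43.5 and 40.6 TPM.

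**Figure D1:**
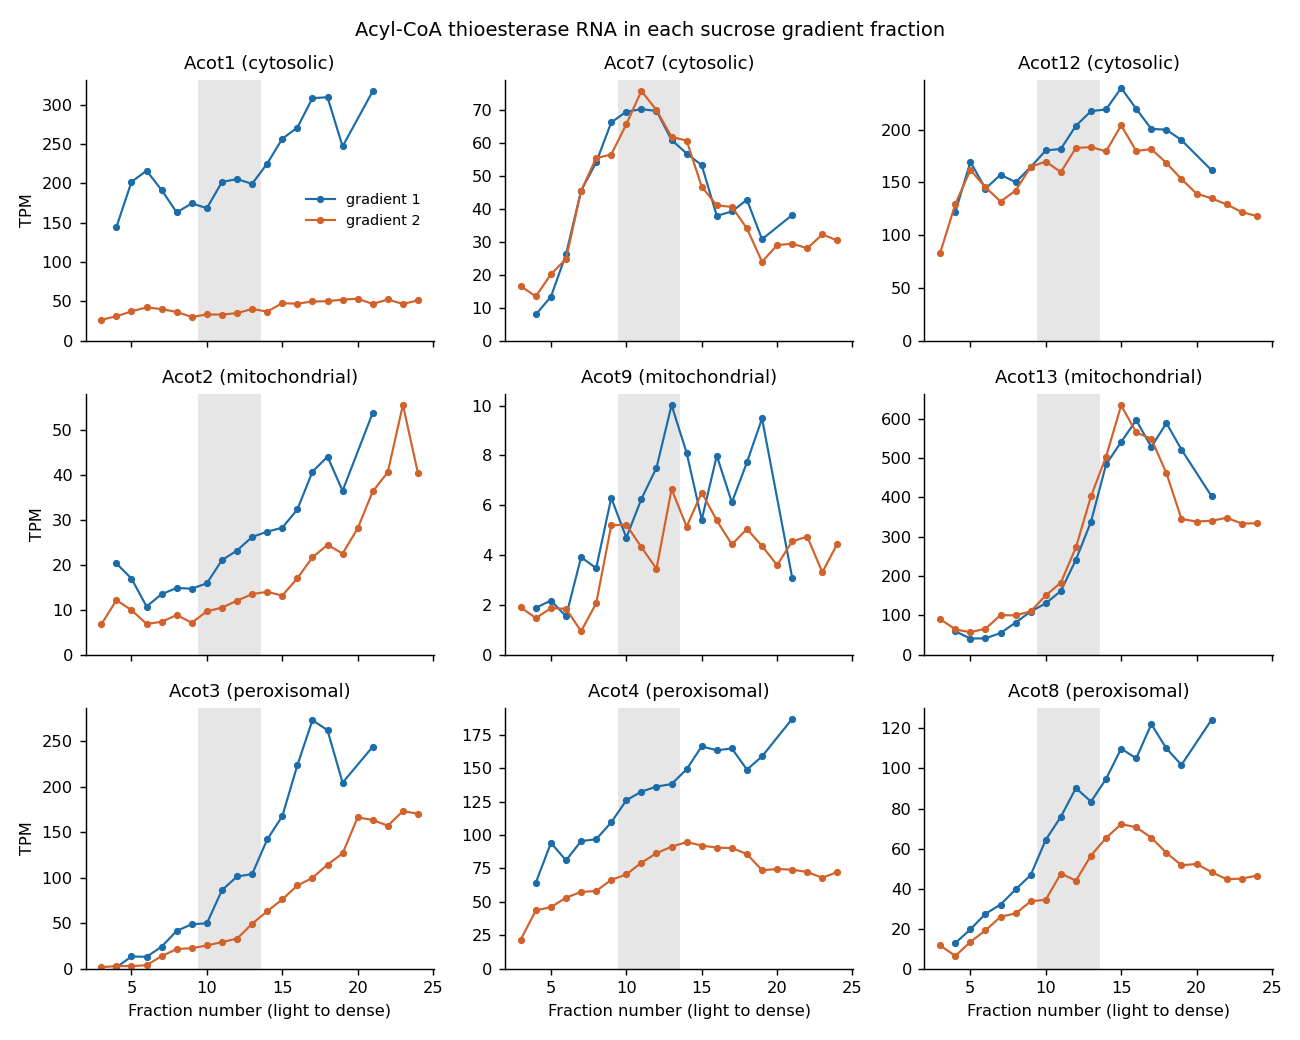
TPM (y axis) of the 9 thioesterases by fraction number (x axis, light to dense) in gradient 1 (blue) and gradient 2 (orange), 1 library per point, with fractions 10 to 13 shaded and the compartment of the encoded enzyme in brackets. Acot7 peaks in fraction 11 of both gradients, Acot13 and Acot3 climb across the shaded fractions, and Acot1 lies at a mean of 224 TPM in gradient 1 against 40.6 TPM in gradient 2.

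Fractions were grouped, by the mean of log2(TPM + 1) within each gradient, into a light zone (fractions 4 to 7), fractions 8–9, a middle zone (10 to 13), fractions 14–15 and a dense zone (16 to 19). Differences tested with limma were the middle zone minus the mean of the light and dense zones, which does not use the dense minus light difference, and fractions 14–15 minus fractions 8–9, which uses libraries outside both end zones but of the same 2 homogenates. All differences below are on the log2(TPM + 1) scale, which understates changes of low genes such as Acot9. The zones of a gradient share a mouse, so each test was also made with the gradient as a replicate block. The fit without the block counts the difference in level between the gradients as spread, and for Acot1 its standard error of the middle difference was 1.19 without the block and 0.078 with it.

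Acot7, a cytosolic enzyme also known as brain acyl-CoA hydrolase, was enriched in the middle of the gradient. In gradient 1 its TPM was 7.98, 13.4, 26.2 and 45.6 in fractions 4, 5, 6 and 7, then 69.6, 70.4, 69.8 and 61.0 in fractions 10 to 13, and 37.9, 39.3, 42.8 and 30.8 in fractions 16 to 19. In gradient 2 the values were 13.5, 20.2, 24.9 and 45.5 in the light zone, 65.8, 75.9, 70.1 and 61.9 in the middle zone and 41.1, 40.7, 34.1 and 24.0 in the dense zone. Every middle fraction was above every light and dense fraction of both gradients. The middle zone exceeded the mean of the ends by 1.30 in gradient 1 and 1.23 in gradient 2 (mean 1.27, SE 0.13, n = 2 gradients, adjusted p = 0.000582, limma). Over the alternative settings the adjusted p ran from 5.53e-05 to 0.0162.

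The other cytosolic members did not share this shape. Acot12, which hydrolyzes acetyl-CoA, ran from 122 to 239 TPM in gradient 1 and from 83.3 to 204 TPM in gradient 2, with its highest value in fraction 15 of both. Its TPM was 150 and 164 in fractions 8 and 9 of gradient 1 against 219 and 239 in fractions 14 and 15, and 142 and 165 against 179 and 204 in gradient 2. Both later fractions lay above both earlier fractions in each gradient, and Acot12 rose by 0.43 (0.54 and 0.32 in the 2 gradients, SE 0.15, adjusted p = 0.0447, limma). The call was lost with fractions 8–9 and 14–15 alone in the fit (adjusted p = 0.0900) and with the fraction numbers of gradient 2 shifted by 1 in either direction (adjusted p = 0.0896 and 0.150). The middle difference of Acot12 was 0.17 (SE 0.13, adjusted p = 0.381), near the median of all genes tested, 0.15.

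Acot1, an inducible enzyme acting on long-chain acyl-CoA, was highest toward the dense end. Its TPM in gradient 1 was 145 to 216 in the light zone, 168 to 206 in the middle zone and 247 to 310 in the dense zone. In gradient 2 it was 31.01 to 42.3, 33.3 to 40.4 and 47.1 to 52.3 TPM. In each gradient the dense fractions lay above the light and middle fractions, whose ranges overlapped. The middle difference was −0.25 and −0.28 (mean −0.26, adjusted p = 0.895, limma), and with the gradient as a block the middle zone was below the mean of the ends (adjusted p = 0.0220), although in gradient 1 it averaged 194 TPM against 189 TPM in the light zone. Fractions 14–15 exceeded fractions 8–9 by 0.51 and 0.33 (mean 0.42, adjusted p = 0.819, and 0.00356 with the block).

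Acot13, a thioesterase of the hotdog-fold family found at mitochondria and also known as Them2, had the largest difference of the 9 genes between fractions 14–15 and 8–9. Its TPM was 81.8 and 110 in fractions 8 and 9 of gradient 1 and 484 and 541 in fractions 14 and 15, and in gradient 2 it was 100.1 and 110 against 504 and 634. The later fractions were far above the earlier fractions in both gradients, with no overlap. The difference was 2.42 in each gradient (SE 0.20, adjusted p = 0.000115, limma), and over the alternative settings it stayed between 2.29 and 2.46. Within the middle zone, Acot13 went from 131, 162 and 241 TPM in fractions 10, 11 and 12 to 338 in fraction 13 of gradient 1, and from 151, 183 and 273 to 403 in gradient 2. Its highest value was in fraction 16 of gradient 1 and in fraction 15 of gradient 2, and the densest fractions held less. In gradient 1 the dense zone held 522 to 597 TPM and fraction 21 held 403 TPM, and in gradient 2 Acot13 went from 565 TPM in fraction 16 to 345 in fraction 19 and stayed between 334 and 348 in fractions 22 to 24. Acot13 lies on chromosome 13 (24817948 to 24831540, reverse strand), had no 31-base word in common with another gene, and its level can be read without the paralog uncertainty of Acot1, Acot2, Acot3 and Acot4.

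Acot2, the mitochondrial matrix paralog of Acot1, had its highest values at the dense end. In gradient 1 its TPM was 10.7 to 20.3 in the light zone, 15.9 to 26.2 in the middle zone and 32.3 to 44.0 in the dense zone, with 53.8 in fraction 21. In gradient 2 it was 6.85 to 12.1, 9.66 to 13.5 and 17.0 to 24.4 TPM, and then 40.3 to 55.6 in fractions 22 to 24. The dense fractions lay above all light and middle fractions in each gradient, and in gradient 2 the densest fractions lay above the dense zone. Fractions 14–15 exceeded 8–9 by 0.87 and 0.71 (mean 0.79, adjusted p = 0.217, limma, and 0.000223 with the block). The middle difference was −0.22 (adjusted p = 0.751, and 0.0654 with the block), so it passed in neither fit.

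Acot9, a further mitochondrial enzyme, had the lowest level of the 9 genes. It lay between 1.54 and 10.0 TPM in gradient 1 and between 0.943 and 6.65 TPM in gradient 2, with its highest value in fraction 13 of both. The light zone held 1.54 to 3.92 TPM and the middle zone 4.70 to 10.0 in gradient 1, and 0.943 to 1.87 against 3.45 to 6.65 in gradient 2, without overlap in either, whereas middle and dense values overlapped in both. The middle difference was 0.58 (0.56 and 0.61, adjusted p = 0.124, limma, and 0.00347 with the block). The difference between fractions 14–15 and 8–9 was 0.53 (adjusted p = 0.154, limma, and 0.00669 with the block). It was 1.04 with quantile normalization, and 0.96 and 0.29 with the fraction numbers of gradient 2 shifted up and down by 1. Over 17 fractions, its profiles in the 2 gradients correlated with R = 0.712 (Pearson), the lowest of the 9 genes, where the median of all genes tested was 0.899.

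**Figure D2:**
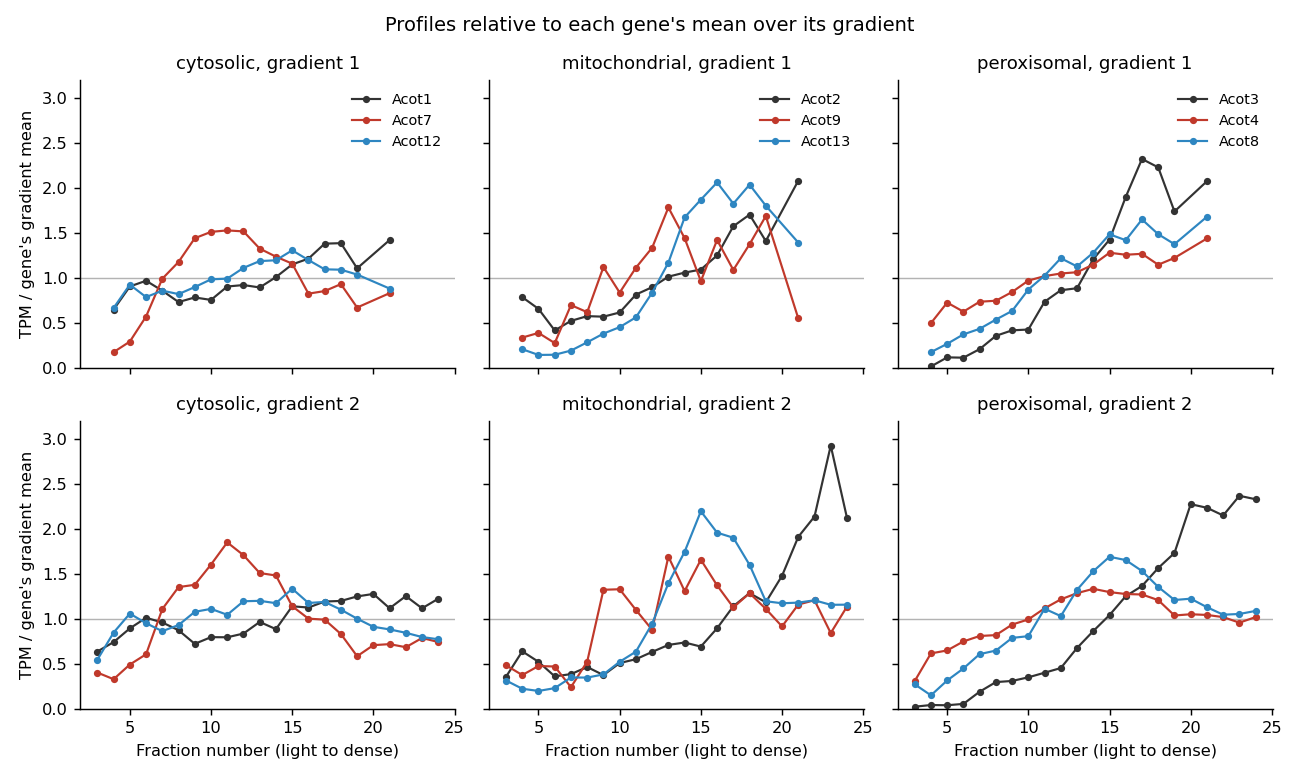
TPM divided by the gene's mean over all fractions of its gradient (y axis, no unit, gray line at 1) against fraction number (x axis), with columns for cytosolic, mitochondrial and peroxisomal members and rows for gradient 1 and gradient 2, 1 library per point. Acot7 peaks in the middle, unlike the other cytosolic members, and Acot2 and Acot3 have their maximum among the dense fractions. The peroxisomal members all rise from the light to the middle fractions, to different degrees.

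Acot3, a peroxisomal enzyme for long-chain acyl-CoA, was low in the lightest fractions and abundant in the densest. Its TPM in gradient 1 was 1.60, 13.5, 13.1 and 24.3 in fractions 4 to 7, then 49.9, 86.3, 101 and 104 in fractions 10 to 13, and 223, 273, 262 and 204 in fractions 16 to 19. In gradient 2 it was 3.06, 2.88, 3.97 and 13.9 in the light zone, 25.6, 29.3, 33.1 and 49.4 in the middle zone and 91.5, 99.7, 114 and 127 in the dense zone. The light, middle and dense zones did not overlap and lay in this order in both gradients, and fractions 22 to 24 of gradient 2 were higher still, at 157 to 173 TPM. Gradient 1 showed no such further rise. Its highest value was in fraction 17, and fraction 21 held 244 TPM, within the range of its dense zone. The dense zone exceeded the light zone by 4.48 and 4.21 (mean 4.34, SD 0.19). These values chose the family and carry no test here. Fractions 14–15 exceeded 8–9 by 1.75 and 1.60, at 142 and 167 against 41.7 and 48.9 TPM in gradient 1 and 63.1 and 76.1 against 21.7 and 22.6 TPM in gradient 2, and as a further stretch of the rise that chose Acot3 this is also given without a test. The middle difference was 0.71 and 0.45 (mean 0.58) and is left without a test too, since it is made from the same light and dense values.

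Acot8, a peroxisomal enzyme of broad chain-length range, was higher in fractions 14–15 than in fractions 8–9. Its TPM was 39.6 and 46.8 in fractions 8 and 9 of gradient 1 and 94.8 and 110 in fractions 14 and 15, and in gradient 2 it was 27.6 and 33.7 against 65.3 and 72.2. There was no overlap within a gradient. The rise was 1.23 and 1.14 (mean 1.19, SE 0.39, adjusted p = 0.0370, limma), and the call was lost with the fraction numbers of gradient 2 shifted up by 1 (adjusted p = 0.0638). The middle difference was 0.61 (adjusted p = 0.230, and 0.00132 with the block). Snx21, which overlaps Acot8 on the opposite strand and encodes a sorting nexin, had its highest TPM at 49.4 in fraction 8 of gradient 1 and 38.6 in fraction 7 of gradient 2, and averaged 11.7 and 7.95 TPM in the dense zone. Whether strand was used in the quantification is not given in the sources used here, so reads of Acot8 and Snx21 from bases they share may not have been told apart.

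Acot4, a peroxisomal enzyme for succinyl-CoA and other dicarboxylyl-CoA esters, had a shallower profile. It averaged 83.7 TPM in the light zone, 133 in the middle zone and 159 in the dense zone of gradient 1, and 50.1, 81.8 and 85.0 TPM in gradient 2. Its highest value was in fraction 21 of gradient 1 (187 TPM) and in fraction 14 of gradient 2 (94.7 TPM), so the 2 gradients differed at the dense end. Fractions 14–15 exceeded 8–9 by 0.61 and 0.58 (mean 0.59, adjusted p = 0.295, limma, and 0.000472 with the block), and the middle difference was 0.27 (adjusted p = 0.654, and 0.0179 with the block) and 0.060 with quantile normalization.

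Counted over the 8 members other than Acot3, 1, Acot7, was called higher in the middle zone and none lower (limma with Benjamini-Hochberg adjustment over 11739 genes, threshold 0.05), where 18.2% of all genes tested were called higher and 6.97% lower. With the gradient as a block, 4 of these 8 were higher (Acot4, Acot7, Acot8 and Acot9) and 1 lower (Acot1), against 37.7% and 18.6% of all genes. Between fractions 14–15 and 8–9, 3 of the 8 were called higher (Acot8, Acot12 and Acot13) and none lower, where 14.5% of all genes were higher and 35.9% lower. With the block, 7 of these 8 were higher, all but Acot7, against 25.6% higher and 49.9% lower. After quantile normalization without the block, Acot2 (adjusted p = 0.0463, limma) and Acot9 (adjusted p = 0.00581) joined Acot8, Acot12 and Acot13, and 26.5% of all genes were then called higher and 21.6% lower. Acot7 differed by −0.095 (−0.12 and −0.069, adjusted p = 0.612, limma, and 0.478 with the block). The median difference of these 8 members between fractions 14–15 and 8–9 was 0.56, and that of all genes was −0.39.

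These backgrounds depend on the scaling of the libraries. After quantile normalization the share of calls that were higher went from 72.3% to 55.8% for the middle difference and from 28.7% to 55.1% for fractions 14–15 minus 8–9, and the median change of all genes went from 0.15 to 0.024 and from −0.39 to 0.021. Changes of the members are therefore best read relative to these medians. With quantile normalization Acot7 differed between fractions 14–15 and 8–9 by 0.17, a change of sign, and the middle difference of Acot12 was −0.072, also a change of sign, and neither passed the test under either scaling.

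**Figure D3:**
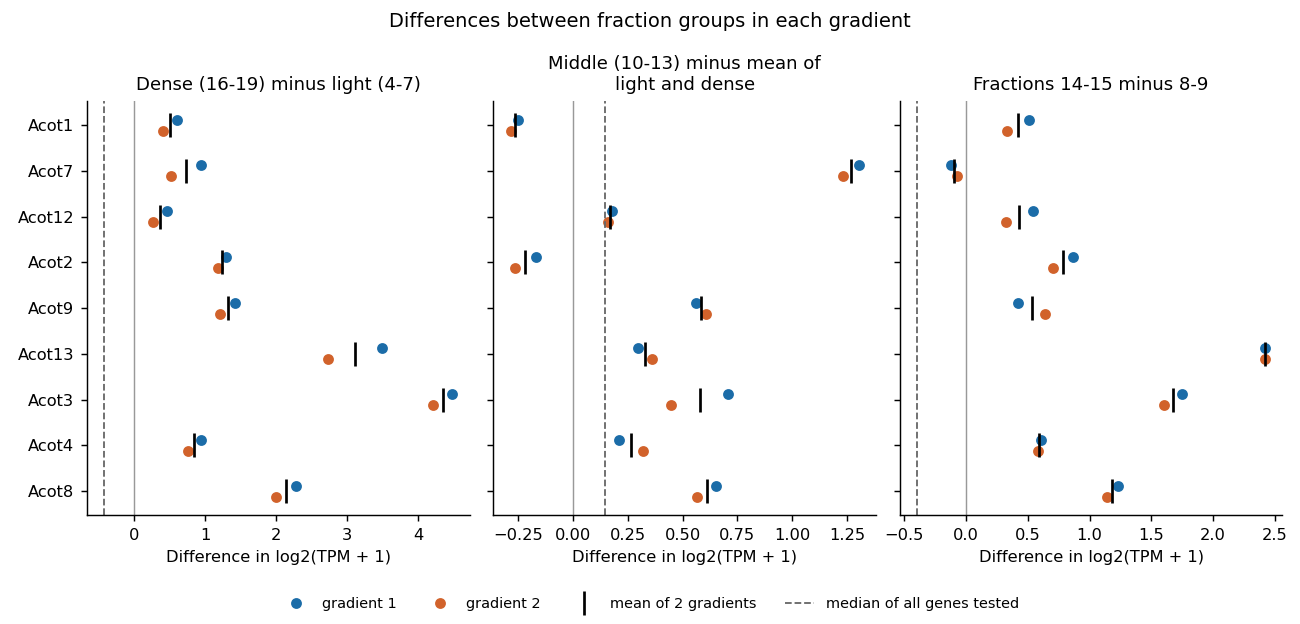
Differences in log2(TPM + 1) (x axis) for each thioesterase (y axis) in gradient 1 (blue) and gradient 2 (orange), with the mean of both (black bar) and the median of all 11739 genes tested (dashed line). The left panel shows the description that chose Acot3 (4.34), the center panel the middle difference, where Acot7 stands at 1.27, and the right panel fractions 14–15 minus 8–9, where Acot13 stands at 2.42.

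The dense minus light differences are given as a description for all members, beside a median of −0.42 over all genes. The median of the members was 1.23. Mitochondrial and peroxisomal fatty acid oxidation genes had medians of 2.50 and 1.21, and acyl-CoA synthetases had 0.84. The other thioesterases tested had a median of 0.92 and genes responsive to PPAR alpha 0.83. Acot3, chosen by its dense minus light difference, was followed by Acot13 (3.49 and 2.73, mean 3.11, SD 0.54) and Acot8 (2.28 and 2.00, mean 2.14, SD 0.20). Acot9 (1.31), Acot2 (1.23), Acot4 (0.84), Acot7 (0.72), Acot1 (0.50) and Acot12 (0.36) came below, and the gaps between neighbors from Acot4 to Acot12 and between Acot9 and Acot2 were within the SD over the gradients of at least 1 gene of the pair, 0.15 for Acot9, 0.12 for Acot4, 0.30 for Acot7, 0.14 for Acot1 and 0.14 for Acot12. With quantile normalization Acot9 stood at 1.97 and Acot12 at 0.082, and with gradient 2 shifted down by 1 fraction Acot7 stood at 0.42. By compartment, the peroxisomal members held 4.34, 2.14 and 0.84, the mitochondrial members 3.11, 1.31 and 1.23, and the cytosolic members 0.72, 0.50 and 0.36, so the cytosolic means were the lowest. Acot7 and Acot4 were not separated, at 0.93 each in gradient 1, and their order turned with quantile normalization (0.95 for Acot7 and 0.83 for Acot4) and with zones of the inner 2 fractions (0.90 and 0.83). The center of sedimentation, the mean fraction number weighted by TPM over the 17 shared fractions, was 15.8 and 16.2 for Acot3. For Acot13 it was 15.3 and 14.8, and for Acot7 12.4 and 12.1. Acot8 had 14.4 and 13.9 and Acot2 14.1 and 14.3, so their order differed between the gradients. The median of all genes was 11.3 in both gradients. Each library was made from an equal mass of RNA, so this center does not account for how much RNA a fraction held. It gives where a gene's share was high, not where most of its RNA lay.

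Since reads may be divided among the paralogs, Acot1, Acot2, Acot3 and Acot4 were also summed. The sum went from 231 TPM in fraction 4 to 802 TPM in fraction 21 of gradient 1, and from 56.9 TPM in fraction 3 to 343 TPM in fraction 23 of gradient 2. The dense minus light difference of the sum was 1.27 and 1.36 (mean 1.32, SD 0.064), that of Acot1 and Acot2 together 0.63, and that of Acot3 and Acot4 together 1.92. Within the sum the makeup moved with density. Acot3 made up 0.694% of it in fraction 4 and 34.7% in fraction 17 of gradient 1, and 2.96% in fraction 3 and 51.6% in fraction 20 of gradient 2. Acot1 went the other way, from 62.6% in fraction 4 to 38.2% in fraction 19 of gradient 1 and from 46.8% in fraction 3 to 13.6% in fraction 23 of gradient 2. Acot4 was the largest part in fractions 4 to 15 of gradient 2, at 40.2% to 52.6%, and Acot3 from fraction 16 on.

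**Figure D4:**
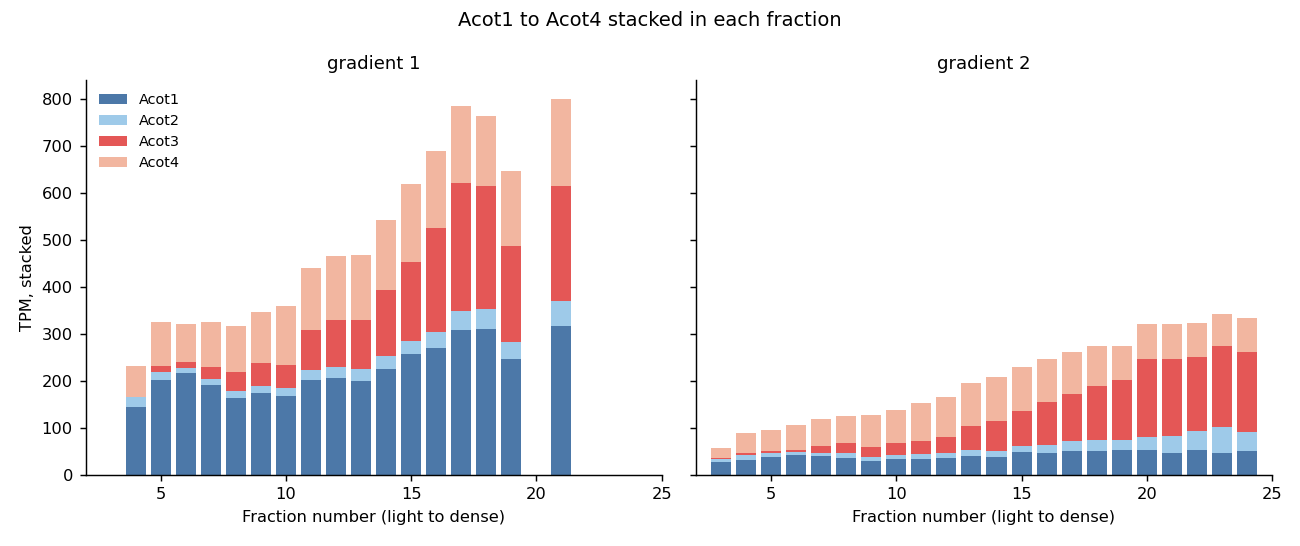
TPM of Acot1, Acot2, Acot3 and Acot4 stacked (y axis) in each fraction (x axis) of gradient 1 (left) and gradient 2 (right), 1 library per bar and no bar where a gradient has no library. The stack reaches 802 TPM in gradient 1 and 343 TPM in gradient 2, and the Acot3 part grows toward the dense fractions in both.

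The level of several members differed between the gradients, each of 1 mouse, so these ratios have no test. Acot1 was 5.51-fold higher in gradient 1 by mean TPM over the shared fractions and higher in 17 of 17 fractions, with folds from 4.47 in fraction 8 to 6.79 in fraction 21, so that its 2 profiles did not touch. Acot3 was 2.13-fold higher and higher in 16 of 17 fractions. Acot2 (1.78-fold), Acot4 (1.76-fold) and Acot8 (1.70-fold) were each higher in 17 of 17 fractions. Acot9 (1.40-fold) and Acot12 (1.13-fold) were higher in 13 and 14, and Acot7 (1.02-fold) and Acot13 (1.00-fold) in 8 and 4 of 17 fractions. Past 2-fold higher in gradient 1 were 2 of 9 members, where 4.07% of all genes tested were past it. After quantile normalization 1 member, Acot1, was past it. The median log2 ratio of the members was 0.77 and that of all genes 0.18, and 67.4% of all genes were higher in gradient 1.

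Acot1 and Acot2 thus differed in their ratios, at 5.51-fold and 1.78-fold, while their coding sequences were 95.6% identical. The sum of Acot1 and Acot2 was 4.53-fold higher in gradient 1, and the sum of Acot1, Acot2, Acot3 and Acot4 was 2.70-fold higher. Such sums still depend in part on how reads were divided. TPM is corrected for transcript length, and reads can be shared with genes outside a sum, such as Acot5. The summed TPM of hepatocyte markers had a median over fractions of 9186 in gradient 1 and 17206 in gradient 2. Its maximum went the other way, at 49731 against 33179. Sinusoidal endothelial, Kupffer and stellate cell markers had medians of 39.7, 45.4 and 40.6 in gradient 1 against 24.4, 53.4 and 38.6 in gradient 2. Cholangiocyte and erythroid markers had medians of 5.31 and 220 against 4.94 and 181 TPM. The ratios above use means, not medians, and the part of these cell types in the ratios was not tested. In bulk tissue, more cells of a type and more RNA per cell cannot be told apart.

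The ratios of related genes are set beside these. Of 36 genes listed as responsive to PPAR alpha, 31 were tested, 28 of them were higher in gradient 1, and 8 were past 2-fold in that direction and none in the other, beside 67.4% and 4.07% of all genes higher and past 2-fold in gradient 1. Their median log2 ratio was 0.53. The 5 largest were Fgf21, a fasting hormone of liver (9.64-fold, 7.34 against 0.761 TPM), Plin5, a lipid droplet coat protein (4.10-fold, 109.7 against 26.7 TPM), Pdk4, an inhibitor of pyruvate oxidation (3.46-fold), Vnn1, a pantetheinase (2.90-fold), and Plin2, also a lipid droplet protein (2.60-fold, 999.7 against 384 TPM). In the other direction, 283 of all genes tested (2.41%) were past 2-fold higher in gradient 2. Of 25 mitochondrial fatty acid oxidation genes 22 were higher in gradient 1, with a median of 0.45 and none past 2-fold. Of 23 peroxisomal fatty acid oxidation genes 15 were higher, with a median of 0.27, 2 past 2-fold in gradient 1 and 1 in gradient 2.

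**Figure D5:**
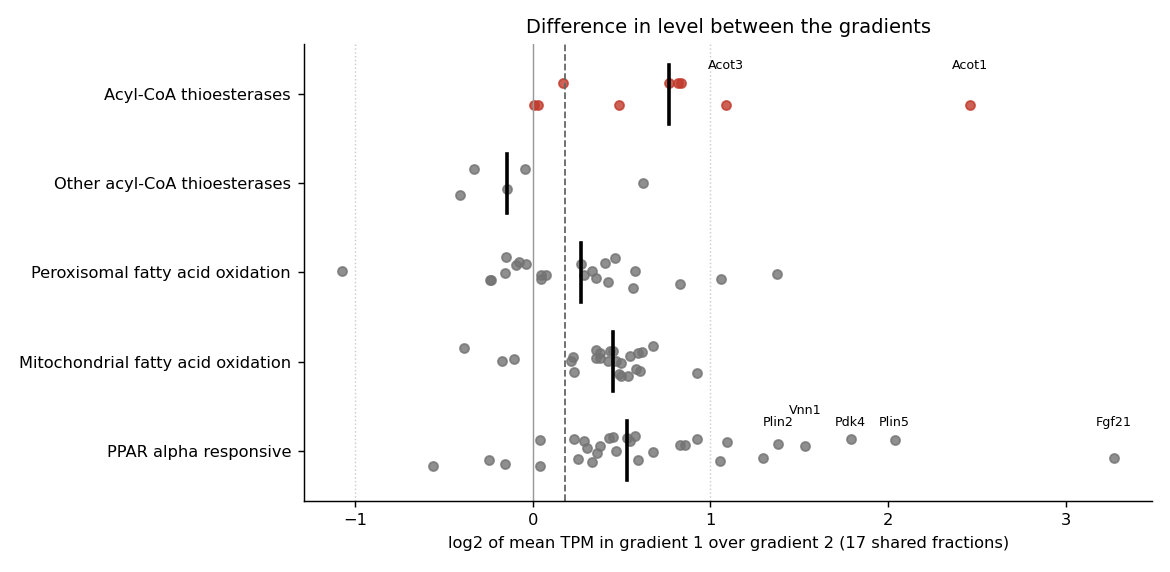
Log2 of mean TPM in gradient 1 over gradient 2 (x axis) for each tested gene of 5 gene lists (rows), with list medians (black bars), the median of all genes tested (dashed line, 0.18) and 2-fold limits (dotted lines). Acot1, at 5.51-fold, and Fgf21, at 9.64-fold, lie farthest to the right of their rows.

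Other genes of acyl-CoA handling are given by counts, to be read beside the shares of all genes tested. In the middle difference these were 18.2% higher and 6.97% lower (37.7% and 18.6% with the block), and for fractions 14–15 minus 8–9 they were 14.5% higher and 35.9% lower (25.6% and 49.9% with the block). Of 9 further thioesterases on the list, 5 were tested, namely Acot6, Acot11, Them4, Them6 and Baat. None was called in the middle difference, and 1 was called higher in fractions 14–15, Baat, which conjugates bile acids (means of 293 and 324 TPM, adjusted p = 0.00448, limma). The other 4 had means of at most 28.8 TPM. With the block, Them6 was called lower in the middle zone, and in fractions 14–15 Acot6, Acot11 and Baat were higher and Them6 lower. Acot6, a further paralog on chromosome 12, had a mean of 2.04 and 1.33 TPM.

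Of 16 tested acyl-CoA synthetases, which make the substrates of the thioesterases, 3 were higher and none lower in the middle zone (3 and 2 with the block), and 7 were higher and 3 lower in fractions 14–15 (9 and 4 with the block). The 3 of 16 are near the 18.2% of all genes. Their median middle difference was −0.051 and their median difference between fractions 14–15 and 8–9 was 0.69, beside 0.15 and −0.39 over all genes. The named synthetases were Acsm3, for medium-chain acids (0.65, adjusted p = 0.0146, limma), and Acss3, for short-chain acids (0.64, adjusted p = 0.0107, limma). Of 23 peroxisomal fatty acid oxidation genes, 6 were higher in the middle zone (14 with the block, and 2 lower) and 14 in fractions 14–15 (20 with the block, and 1 lower), with medians of 0.48 and 0.87. Those with the largest middle differences were Phyh, of phytanic acid oxidation (1.02, adjusted p = 0.00610, limma), and Scp2, a thiolase and lipid carrier (0.91, adjusted p = 0.0168, limma). Acot7's middle difference, 1.27, was above both.

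Of 25 mitochondrial fatty acid oxidation genes, 9 were higher in the middle zone (17 with the block, and 2 lower) and 22 in fractions 14–15 (25 with the block), with medians of 0.35 and 1.38. Etfb and Etfa, which carry electrons from acyl-CoA dehydrogenases, had the largest middle differences (1.15 and 0.97, adjusted p = 0.00623 and 0.00195, limma). Of the 31 PPAR alpha genes, 1 was higher in the middle zone, the fatty acid binding protein Fabp1 (2.05, adjusted p = 0.000754, limma), and 2 were lower, the carnitine transporter Slc22a5 (−0.92, adjusted p = 0.0259) and Txnip, a regulator of glucose uptake (−0.66, adjusted p = 0.0202). With the block these counts were 7 and 6. In fractions 14–15, 11 were higher and 6 lower (18 and 9 with the block). The medians of this list were −0.16 and 0.79.

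Profiles were compared by the mean over both gradients of Pearson's R of log2(TPM + 1) over the 17 shared fractions, as a description, since neighboring fractions are not independent and share a homogenate. Among the thioesterases, the highest R was between the peroxisomal pair Acot4 and Acot8 (0.964), followed by Acot3 and Acot8 (0.940), Acot4 and Acot13 (0.926), Acot8 and Acot13 (0.916), Acot3 and Acot4 (0.912) and Acot3 and Acot13 (0.907). The cytosolic Acot7 lay lowest, with −0.091 to Acot2 and −0.061 to Acot1. In gradient 1 these R were 0.042 and 0.120 and in gradient 2 −0.223 and −0.242, so their sign differed between the gradients. Acot1 and Acot2 had an R of 0.742 although a large part of their sequence is shared. Of 7201 other genes averaging at least 10 TPM, those with the profile most like Acot3 were Gpt (0.989), Fasn (0.989) and Bckdha (0.987). Acot13 was most like Hebp1, Tpi1 and Dhrs4 (0.988 to 0.990), Acot8 most like Tymp, U2af2 and Cdc37 (0.987 to 0.992), and Acot7 most like Sntb1, Mrpl37 and Dalrd3 (0.981 to 0.984). For Acot4 they included Uqcrfs1 (0.982) and Cope (0.973), for Acot2 they were Bhmt, G3bp1 and Tuba4a (0.963 to 0.967), and for Acot1 Gpi1, Phyhd1 and Pml (0.920 to 0.938). Acot9 (Gpn3, Rfc3 and Scfd1) and Acot12 (Maea, Exosc2 and Dnajb1) reached at most 0.882 and 0.890.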

How the data were processed

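RNA of gradient fractions was sequenced with stranded libraries depleted of ribosomal RNA. The authors quantified reads by pseudo-alignment (Kallisto, RefSeq transcripts of mm10), and the values they deposited are TPM of gene symbols, in a table for each gradient. The submitters' processing notes name bcl2fastq 2.16.0.10 and kallisto, without a version, and the strand setting and the summing to genes are not given in the sources used here. TPM keeps no counts, so no count model was used. The number of value columns not matched to a sample was 0. Samples were grouped by gradient and fraction from the titles.

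From 32 libraries (fractions 4 to 19), log2(TPM + 1) was averaged into 10 values, 5 groups of fractions in each of 2 gradients, for 11739 genes averaging at least 1 TPM. These were fitted in 1 model with limma (eBayes with trend) and adjusted by the Benjamini-Hochberg method at a threshold of 0.05. Without the block, the p-values rest on the spread between the 2 gradients within a group, pooled over the 5 groups and moderated over all genes. With the block, the difference in level between the gradients is removed. Those p-values rest only on how the differences between groups vary from 1 gradient to the other. How each gradient departed from the mean of both correlated between groups of fractions, with r from 0.540 to 0.798 over 10 pairs, and the groups share a mouse, so the gradient was also used as a replicate block. In simulated data on 11739 genes, the middle difference was called for 4%, 66% and 100% of genes changed by 0.5, 1 and 2 (log2) and for 0.13% of unchanged genes, and fractions 14–15 minus 8–9 for 4%, 50% and 98%, and 0.078%. The simulation drew the 10 values of a gene independently and changed few genes. It left out the correlation between groups of a gradient, so these shares may not hold for the real data.

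The members, the gene lists and the tests were chosen with earlier results of these data known. Named genes are the 9 members, of each list the 2 highest and 2 lowest middle differences among called genes of equal sign in both gradients, of the PPAR alpha list the 5 largest ratios past 2-fold, and for each member the 3 genes of highest R, of which 1 is not reported here. Alternatives were the pseudocount (0.1), the filter on TPM (none or 10), leaving out the 50 most abundant genes, quantile normalization, the replicate block, gradient 2 shifted by 1 fraction, other groups of fractions and leaving out a gradient. Positions and sequences came from GENCODE for GRCm38, the assembly of mm10, whose transcripts may differ from the authors' index. Protein sequences were not used here. Software was Python 3.11.15, NumPy 2.4.6, pandas 2.3.3, matplotlib 3.10.9, R 4.3.3 and limma 3.58.1.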

Additional observations from a re-analysis of the deposited data

How the results depend on the processing

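The number of genes called in the middle difference, 2956, was 6608 with the gradient as a replicate block and 1956 and 1661 with the fraction numbers of gradient 2 shifted up and down by 1. Other settings gave 2010 to 3440. For fractions 14–15 minus 8–9 the count of 5920 stayed between 4170 and 8860, the latter with the replicate block. Among the members other than Acot3, the block brought 4 further middle differences and 4 differences between fractions 14–15 and 8–9 past the threshold and removed none. Signs turned for the middle difference of Acot12 (−0.072 with quantile normalization) and for fractions 14–15 minus 8–9 of Acot7 (0.17 with quantile normalization and 0.081 with gradient 2 shifted up), none of them called. The median dense minus light difference of the members, 1.23, was 1.04 over the 8 members averaging at least 10 TPM and 1.56 with quantile normalization, and 1.18 to 1.29 with 1 gradient left out. For the summed paralogs it was 1.32, and 0.63 and 1.92 for the sums of Acot1 with Acot2 and of Acot3 with Acot4. The count of members past 2-fold between the gradients, 2, was 1 with quantile normalization. With a gradient left out, no test was possible, and every member kept its direction in all differences. The cause of these changes was not tested. With 2 mice and unknown depth, differences within the spread between gradients cannot be resolved.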
